A study of Mus musculus with 12 samples.

Results

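The 8 genes described here encode the enzymes and the transporter through which MDSCs (myeloid-derived suppressor cells) take up and break down arginine, together with enzymes that act on other amino acids. They are Arg1, Arg2, Nos2, Slc7a2, Ass1, Odc1, Il4i1, and Ido1, chosen by symbol from the 35303 symbols of the count table, and all 8 passed the minimum of 2 counts over the 12 libraries, which left 17676 symbols to test. RNA was sequenced from MDSCs grown from the bone marrow of female wild-type C57BL/6 mice aged 6 to 10 weeks, cultured with IL-6 and GM-CSF (40 ng/ml each), harvested as nonadherent cells on day 3, and purified as CD11b+Gr1+ cells. The 3 groups of 4 biological replicates were MDSCs alone (MDSC), MDSCs with drug-free PLGA nanoparticles attached to the cell surface by azido-DBCO click chemistry (MDSC-NP-Blk), and MDSCs carrying the same kind of nanoparticle loaded with rapamycin, an inhibitor of the kinase mTOR (CITED). All groups were kept for a further 24 hours with IL-6 (40 ng/ml), so no group lacked the cytokine, and whether the MDSC group received the azido sugar was not stated. The cells were a mixture of granulocytic and monocytic MDSCs, so in these bulk samples fewer cells that express a gene and less RNA of that gene per cell cannot be told apart. The labels name the CNS as tissue, but cultured bone marrow cells were sequenced according to the methods. Of 5 neural markers, Rbfox3, Snap25, Gfap, and Olig2 each had fewer than 2 counts over the 12 libraries. Mbp, the other neural marker, was detected in every group, with normalized counts of 1763 to 2237.

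Arginine is a shared substrate of arginases and nitric oxide synthases. Arginase 1 in the cytosol and arginase 2 in mitochondria cleave it to ornithine and urea, whereas the inducible synthase encoded by Nos2 converts it to nitric oxide and citrulline. MDSCs are known for suppressing T cells by depleting arginine and by releasing nitric oxide. The transporter encoded by Slc7a2 (CAT-2) imports arginine, argininosuccinate synthase (Ass1) starts the conversion of citrulline back to arginine, and ornithine decarboxylase (Odc1) turns ornithine into putrescine, the first polyamine. Il4i1 encodes a secreted oxidase of aromatic amino acids, and Ido1 encodes the enzyme that opens the ring of tryptophan to start the kynurenine pathway.
On GRCm39, Arg1 spans chr10:24791118-24803817 (minus strand, 8 exons in the canonical transcript) and Arg2 spans chr12:79177524-79203075 (plus strand, 8 exons). Nos2 spans chr11:78811613-78851080 (plus strand, 27 exons) and Slc7a2 chr8:41315431-41375345 (plus strand, 12 exons). Ass1 spans chr2:31352181-31410862 (plus strand, 16 exons) and Odc1 chr12:17594383-17601507 (plus strand, 12 exons). Il4i1 spans chr7:44465354-44490233 (plus strand, 9 exons) and Ido1 chr8:25074150-25087025 (minus strand, 10 exons). All 8 are annotated as protein-coding.

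The 250 bases before the start of the canonical transcript are shown for the arginine transporter and for the enzymes that compete for arginine. They were read from GRCm39 with the starts of GENCODE release M39 and are written 5′ to 3′ on the strand of the gene, with the searched words in capitals.
Nos2 (chr11:78811363-78811612, + strand): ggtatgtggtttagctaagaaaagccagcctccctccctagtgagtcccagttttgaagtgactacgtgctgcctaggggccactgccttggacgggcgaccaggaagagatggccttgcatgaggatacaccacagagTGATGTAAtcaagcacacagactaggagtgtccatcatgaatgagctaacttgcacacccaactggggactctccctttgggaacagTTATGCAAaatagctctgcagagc
Slc7a2 (chr8:41315183-41315432, + strand): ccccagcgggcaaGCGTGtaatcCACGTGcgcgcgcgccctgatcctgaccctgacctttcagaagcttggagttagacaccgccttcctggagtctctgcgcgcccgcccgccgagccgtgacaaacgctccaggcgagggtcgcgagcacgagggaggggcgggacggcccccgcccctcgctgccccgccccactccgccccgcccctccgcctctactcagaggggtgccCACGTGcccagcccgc
Arg1 (chr10:24803517-24803766, - strand): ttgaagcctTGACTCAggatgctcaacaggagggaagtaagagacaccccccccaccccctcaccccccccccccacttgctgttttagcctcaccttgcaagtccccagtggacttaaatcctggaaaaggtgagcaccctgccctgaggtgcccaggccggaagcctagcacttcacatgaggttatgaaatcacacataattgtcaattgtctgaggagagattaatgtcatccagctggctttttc
Arg2 (chr12:79177274-79177523, + strand): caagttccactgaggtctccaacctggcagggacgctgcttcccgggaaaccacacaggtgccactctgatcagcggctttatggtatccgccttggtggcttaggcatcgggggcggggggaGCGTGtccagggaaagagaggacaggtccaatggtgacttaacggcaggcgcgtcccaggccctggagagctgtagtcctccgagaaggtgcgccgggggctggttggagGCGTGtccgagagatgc
The capitals in Nos2 mark an ATF4 and C/EBP word (TGATGNAA) at −111, counted in bases from the transcript start, and a C/EBP word (TTGCNNAA, on the opposite strand) at −24. Those in Slc7a2 mark the E-box CACGTG at −227 and −16 and the aryl hydrocarbon receptor word GCGTG at −237. Arg1 held the AP-1 word TGANTCA at −241, and Arg2 held GCGTG at −127 and −17. The words searched on both strands were these, the STAT word TTCNNNGAA, and the TATA box TATAAA, and no marked words overlapped. A word for NF-kB was also searched, but it was narrower than the usual consensus and its result is left out. Among windows of this length before 21749 genes, 3.39% held TGATGNAA, 9.34% TTGCNNAA, 6.26% CACGTG, 6.17% TGANTCA, and 31.2% GCGTG. The STAT word was found in 7.7% of these windows and the TATA box in 11.9%, and neither was found in the window of any of the 8 genes. The GC content was 51.6% in the Nos2 window, 52.8% in Arg1, 63.2% in Arg2, and 72.8% in Slc7a2. A word in a window is a match of letters and not a site of binding, and binding was not measured.

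The libraries held 20604809 to 37855478 gene counts each, and 3 counts, the smallest number taken as detection, were 7.92e-06% to 1.46e-05% of a library, a limit set by counting error alone. Normalized counts were scaled by library size with TMM factors. Differences are log2 fold changes from edgeR's quasi-likelihood test over all 12 libraries, with their standard errors (SE) and p-values adjusted by Benjamini-Hochberg over all 17676 genes tested. Called genes had an adjusted p below 0.05 and a log2 fold change of at least 1 in either direction. MDSC libraries had TMM factors of 1.118 to 1.148, and those with nanoparticles had 0.9214 to 0.9465. Without these factors the median log2 fold change of the 10555 genes with a mean normalized count of at least 50 was −0.26 in either group against MDSC (0.02 and 0.00 with them), so fold changes below are relative to the typical gene.

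Arg1 and Ass1 were the most abundant of the 8 transcripts in every group, and Ido1 was barely detected. To compare genes, counts were divided by the length of the canonical transcript and scaled to the same sum in every library (TPM). In MDSC, the TPM was 565 ± 53.5 (SD, n = 4) for Arg1, 346 ± 10.9 for Ass1, 138 ± 3.73 for Odc1, and 89.2 ± 9.45 for Slc7a2. It was 82.5 ± 6.73 for Nos2, 55.9 ± 5.15 for Arg2, 27.8 ± 3.43 for Il4i1, and 0.154 ± 0.0311 for Ido1, and in this order only the neighbors Slc7a2 and Nos2 overlapped between libraries. Among the 35220 symbols with a length, Arg1 ranked 263 in MDSC.
In CITED, Nos2 stood below Il4i1, at 7.29 ± 1.04 TPM against 21.2 ± 1.80 (SD, n = 4 each), and the libraries of the 2 genes did not overlap. Arg2 stood next after Ass1 both in MDSC-NP-Blk, at 113 ± 5.28 TPM, and in CITED, at 140 ± 1.58, and overlapped with Odc1 in either group. TPM uses total counts without TMM factors, so it serves to order genes within a group and not to compare groups.

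**Figure D1:**
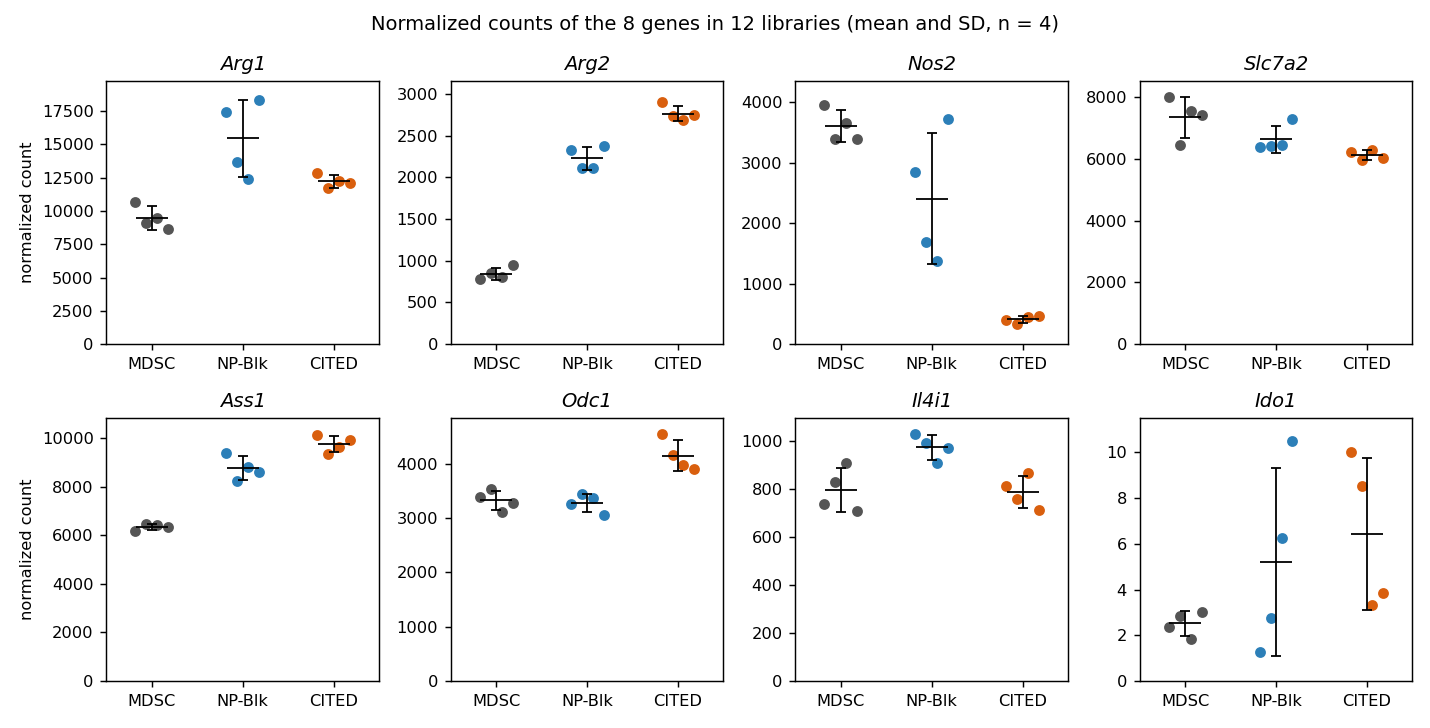
Normalized counts (y axis, from 0) of the 8 genes in the 4 libraries of each group (x axis, NP-Blk for MDSC-NP-Blk), with points for libraries and bars for the mean and SD. Nos2 lay between 341 and 458 in CITED and at 3394 or more in every MDSC library, and Arg2 was higher in all 8 libraries with nanoparticles than in any MDSC library.

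Nos2, the source of inducible nitric oxide, had the largest called change of the 8 genes. Normalized counts of Nos2 were 3960, 3396, 3654, and 3394 in the MDSC libraries 1 to 4 and 395, 341, 456, and 458 in the CITED libraries. In MDSC-NP-Blk it was 2837, 1696, 1371, and 3721. Every CITED library was below every library of the other groups, whereas MDSC-NP-Blk 4 lay within the MDSC range and MDSC-NP-Blk 3 was the lowest outside CITED. The mean of 413 ± 55.8 in CITED was 8.69-fold lower than 3601 ± 268 in MDSC (SD, n = 4 each), which is −3.12 on the log2 scale (SE 0.176, adjusted p = 1.0e-16 in edgeR's quasi-likelihood test). Against MDSC-NP-Blk, with 2406 ± 1078, CITED was 5.78-fold lower (log2 fold change −2.53, SE 0.175, adjusted p = 1.8e-13 in edgeR's test). MDSC-NP-Blk was lower than MDSC by less, with a log2 fold change of −0.59 (SE 0.154, adjusted p = 0.00216 in edgeR's test), and the libraries of these groups overlapped. With DESeq2 the same difference had an adjusted p of 0.0675, and without MDSC-NP-Blk 3 or 4 the log2 fold change was −0.40 or −0.88. The SE and p-values from edgeR assume a spread shared by all groups. The coefficient of variation of Nos2 was 44.8% in MDSC-NP-Blk but 7.46% in MDSC and 13.5% in CITED.

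Arg2, the mitochondrial arginase, rose in both groups with nanoparticles. Arg2 normalized counts were 787, 848.5, 801, and 947 in MDSC, 2324, 2113, 2105, and 2371 in MDSC-NP-Blk, and 2897, 2734, 2681, and 2740 in CITED. The 3 groups did not overlap. Against MDSC, with 846 ± 72.2, Arg2 was 2.64-fold higher in MDSC-NP-Blk at 2228 ± 139 and 3.27-fold higher in CITED at 2763 ± 93.1 (SD, n = 4 each). The log2 fold changes were 1.40 (SE 0.0643, adjusted p = 1.6e-18) and 1.71 (SE 0.0645, adjusted p = 2.9e-21) in edgeR's test. CITED was higher than MDSC-NP-Blk by 0.31 on the log2 scale (SE 0.0616, adjusted p = 2.0e-04 in edgeR's test), below the fold threshold. Arg2 overlaps Vti1b and a long noncoding RNA on the opposite strand, and whether the reads were assigned by strand is not stated.

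Arg1, the cytosolic arginase, was highest in MDSC-NP-Blk. Its normalized count was 10702, 9089, 9497, and 8621 in MDSC, 17450, 13679, 12376, and 18300 in MDSC-NP-Blk, and 12846, 11722, 12212, and 12079 in CITED. All libraries with nanoparticles were above all MDSC libraries, but MDSC-NP-Blk 3 lay within the CITED range. Against MDSC the log2 fold change was 0.70 in MDSC-NP-Blk (SE 0.0780, adjusted p = 3.2e-09) and 0.37 in CITED (SE 0.0779, adjusted p = 1.7e-04) in edgeR's test. CITED was lower than MDSC-NP-Blk, at −0.34 on the same scale (SE 0.0777, adjusted p = 0.00115 in edgeR's test). None of these reached the fold threshold, and without TMM factors the difference between CITED and MDSC was 0.09 with an adjusted p of 0.34, and that between MDSC-NP-Blk and MDSC was 0.44. After removal of the trend with transcript length that is described below with Slc7a2, the difference between CITED and MDSC was 0.18 (adjusted p = 0.0187 in edgeR's test), and CITED 2 and 4, at 11314 and 11520, lay below MDSC 1, at 11574. The direction between CITED and MDSC-NP-Blk was opposite for Arg1 and Arg2, and each passed the test on its own. The difference between the 2 genes was not tested.

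Ass1, which feeds citrulline back toward arginine, rose in both groups with nanoparticles. Ass1 had normalized counts of 6172, 6464, 6401, and 6342 in MDSC, 9395, 8224, 8792, and 8616 in MDSC-NP-Blk, and 10118, 9354, 9615, and 9924 in CITED. No library with nanoparticles reached down to the MDSC range, whereas the highest MDSC-NP-Blk library lay just above the lowest CITED library. The log2 fold change against MDSC was 0.46 in MDSC-NP-Blk (SE 0.0478, adjusted p = 6.2e-10) and 0.62 in CITED (SE 0.0478, adjusted p = 3.4e-13) in edgeR's test. CITED was above MDSC-NP-Blk by 0.16 (SE 0.0476, adjusted p = 0.0148 in edgeR's test), a difference that lost the test without MDSC-NP-Blk 2 (adjusted p = 0.0831) or CITED 1 (adjusted p = 0.0516). Without TMM factors the differences from MDSC were 0.20 in MDSC-NP-Blk and 0.35 in CITED, and each still passed the test. Of the 31-base words of Ass1, 59.2% also occur in the gene Gm5424, which had 0 to 15 counts per library, so the split of reads between them is uncertain.

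Odc1, the entry to polyamines, was higher in CITED than in either other group. Odc1 normalized counts were 3378, 3527, 3112, and 3281 in MDSC, 3258, 3442, 3358, and 3056 in MDSC-NP-Blk, and 4539, 4156, 3965, and 3907 in CITED. All CITED libraries were above all others, and MDSC and MDSC-NP-Blk overlapped. The log2 fold change of CITED was 0.32 against MDSC (SE 0.0557, adjusted p = 1.1e-05) and 0.34 against MDSC-NP-Blk (SE 0.0559, adjusted p = 1.6e-05) in edgeR's test. MDSC-NP-Blk differed from MDSC by −0.02 (95% confidence interval −0.13 to 0.09, adjusted p = 0.83 in edgeR's test). Without TMM factors the difference between CITED and MDSC was 0.04 (adjusted p = 0.548) and that of MDSC-NP-Blk from MDSC was −0.28 (adjusted p = 4.77e-05 in edgeR's test). Other genes hold 49.6% of the 31-base words of Odc1, mainly Gm7993, which had 0 to 9 counts.

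Slc7a2, the arginine transporter, was the least separated of the arginine genes. The 12 libraries had normalized counts of 8019, 6439, 7546, and 7415 in MDSC, 6405, 6416, 6448, and 7304 in MDSC-NP-Blk, and 6225, 5963, 6283, and 6019 in CITED. CITED lay just below the lowest library of either other group, and MDSC and MDSC-NP-Blk overlapped. The log2 fold change against MDSC was −0.26 in CITED (SE 0.0563, adjusted p = 1.6e-04) and −0.15 in MDSC-NP-Blk (SE 0.0561, adjusted p = 0.036) in edgeR's test, and CITED against MDSC-NP-Blk was −0.12 (95% confidence interval −0.23 to −0.003, adjusted p = 0.148). Its canonical transcript of 7926 bases is the longest of the 8, and the libraries differed in how expression followed transcript length. Across 10542 genes, which are no independent replicates, Spearman's rho of length with relative expression (the level in a library over the mean of all libraries) ranged from 0.218 to 0.346 for MDSC libraries, from −0.422 to 0.092 for MDSC-NP-Blk, and from −0.341 to −0.187 for CITED. After a length trend was removed in each library, Slc7a2 was 5977 to 6966 in MDSC, 6443 to 6992 in CITED, and 6303 to 7637 in MDSC-NP-Blk. The fold changes against MDSC then turned to 0.045 in CITED (adjusted p = 0.509) and 0.077 in MDSC-NP-Blk (adjusted p = 0.258) in edgeR's test. Without TMM factors the fold changes of Slc7a2 against MDSC were instead −0.54 in CITED and −0.41 in MDSC-NP-Blk (adjusted p = 6.59e-10 and 2.41e-07 in edgeR's test). Removal of the length trend left the log2 fold change of Nos2, with a transcript of 4192 bases, at −0.53 in MDSC-NP-Blk against MDSC.

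Il4i1, the secreted amino acid oxidase, was highest in MDSC-NP-Blk by a small margin. Normalized counts were 737, 829, 906, and 706 in MDSC, 1027, 990, 905, and 967 in MDSC-NP-Blk, and 811, 756, 867, and 711 in CITED. All MDSC-NP-Blk libraries were above all CITED libraries, and the lowest of them was just below the highest MDSC library. MDSC-NP-Blk was above MDSC by 0.29 on the log2 scale (SE 0.0814, adjusted p = 0.004), and CITED stood at −0.31 relative to MDSC-NP-Blk (SE 0.0822, adjusted p = 0.00519) in edgeR's test. CITED differed from MDSC by −0.02 (95% confidence interval −0.18 to 0.15, adjusted p = 0.913). Without TMM factors the first of these was 0.03 (adjusted p = 0.826) and the last −0.29 (adjusted p = 0.00348 in edgeR's test). Il4i1 overlaps Nup62 on its own strand and shares 19.3% of its 31-base words with it. Nup62 had 1741 to 3210 counts, more than Il4i1, so part of the signal of Il4i1 could be assigned either way. Il4i1 also overlaps Tbc1d17 and Atf5 on the opposite strand, and whether the reads were assigned by strand is not stated. Atf5 was called higher in CITED against MDSC (log2 fold change 1.78) and against MDSC-NP-Blk (1.02).

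Ido1 was close to the floor in every library, with 3, 3, 2, and 3 counts in MDSC, 1, 4, 6, and 9 in MDSC-NP-Blk, and 8, 7, 3, and 4 in CITED. The sums were 11, 20, and 22 counts, and no MDSC library exceeded 3. Scaled to library size, CITED had 2.05 times the summed count of MDSC (95% counting interval 0.954 to 4.69), MDSC-NP-Blk had 1.65 times (0.753 to 3.81), and CITED had 1.24 times that of MDSC-NP-Blk (0.648 to 2.40). The adjusted p in edgeR's test was 0.276, 0.429, and 0.886, so a difference was not detectable at this depth.

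Of the 8 genes, 1 was called higher (Arg2) and 1 lower (Nos2) in CITED against MDSC, where 3.28% of all genes tested were called higher and 6.70% lower. In MDSC-NP-Blk against MDSC, 1 was called higher (Arg2) and 0 lower, against 1.88% and 2.86% of all genes. In CITED against MDSC-NP-Blk, 0 were called higher and 1 lower (Nos2), against 0.651% and 2.00%. At an adjusted p below 0.05 without the fold threshold, 4 were higher (Arg1, Arg2, Ass1, and Odc1) and 2 lower (Nos2 and Slc7a2) in CITED against MDSC, where 22.2% of all genes were higher and 22.2% lower. For MDSC-NP-Blk against MDSC, 4 were higher (Arg1, Arg2, Ass1, and Il4i1) and 2 lower (Nos2 and Slc7a2), beside 19.9% and 18.6% of all genes. For CITED against MDSC-NP-Blk, 3 were higher (Arg2, Ass1, and Odc1) and 3 lower (Arg1, Nos2, and Il4i1), beside 10.5% and 11.4%. Shares here and below are over all 17676 genes tested, of which 10555 had a mean normalized count of at least 50. Of the 8 genes, only Ido1 was below that level, and shares among genes of like abundance were not computed. The median log2 fold change of the 8 genes was 0.34, 0.38, and 0.02 in these comparisons, and that of all genes tested was −0.05, −0.03, and 0.00. The comparisons share libraries, and calls that pass in one and not in another were not tested against each other.

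**Figure D2:**
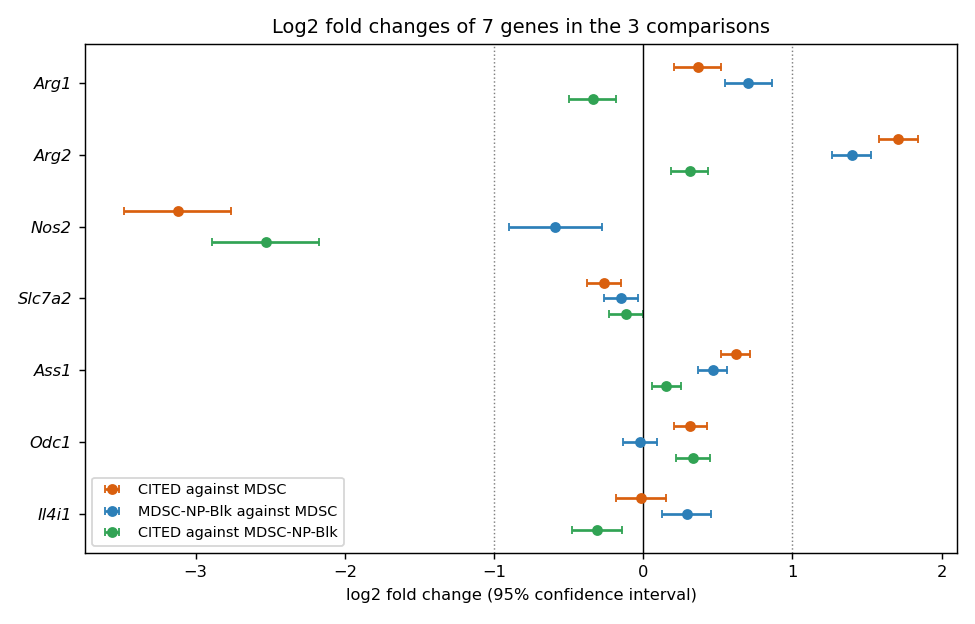
Log2 fold changes (x axis) of 7 of the genes, Ido1 being left out for its low counts, with 95% confidence intervals from edgeR's quasi-likelihood test. Dotted lines mark the fold threshold of 1, which only Arg2 against MDSC (1.40 and 1.71) and Nos2 in CITED (−3.12 and −2.53) passed.

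Within single libraries, the ratio of arginase to nitric oxide synthase transcripts set the 3 groups apart. The ratio of the length-scaled counts of Arg1 to those of Nos2 was 7.03, 6.96, 6.76, and 6.61 in MDSC, 16.0, 21.0, 23.5, and 12.8 in MDSC-NP-Blk, and 84.6, 89.3, 69.7, and 68.6 in CITED. The groups did not overlap, and library scaling does not enter such a ratio. The length trend described with Slc7a2 does enter it, as the transcript of Arg1 has 1611 bases and that of Nos2 has 4192. Ratios were not computed with that trend removed. Counts of Nos2 with the trend removed were 353 to 466 in CITED and 3267 to 3824 in MDSC. Those of Arg1 were 11314 to 11954 in CITED and 9495 to 11574 in MDSC. The ratio of the transporter Slc7a2 to Nos2 was 1.00 to 1.16 in MDSC, 6.95 to 9.23 in CITED, and 1.04 to 2.49 in MDSC-NP-Blk. The order of the groups was the reverse for Arg1 over Arg2, with 3.87 to 4.11 for CITED, 5.31 to 6.97 for MDSC-NP-Blk, and 8.23 to 12.3 for MDSC, again without overlap.

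**Figure D3:**
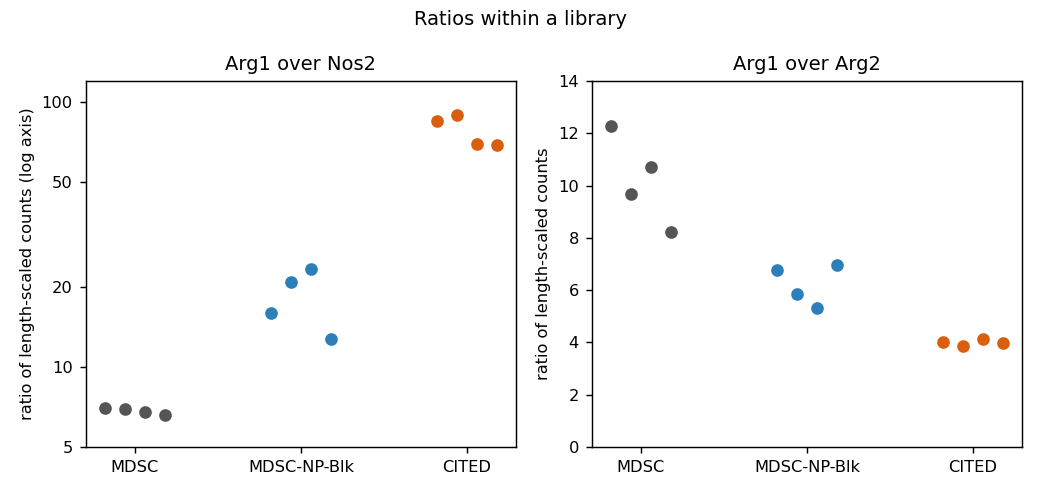
Ratios of length-scaled counts within each of the 12 libraries, for Arg1 over Nos2 on a log axis (left) and Arg1 over Arg2 on a linear axis from 0 (right), with 1 point per library. Arg1 over Nos2 lay between 6.61 and 7.03 in MDSC and between 68.6 and 89.3 in CITED.

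The MDSC-NP-Blk libraries spread more than the others for Nos2 and Arg1. The coefficient of variation of Nos2 was 44.8% in MDSC-NP-Blk, 7.46% in MDSC, and 13.5% in CITED, and that of Arg1 was 18.6%, 9.41%, and 3.84%. The SE and p-values given for both genes do not allow for a different spread in each group. For both genes, libraries 1 and 4 of MDSC-NP-Blk were high and libraries 2 and 3 were low, and after removal of the length trend this remained, with Nos2 at 2909, 1688, 1362, and 3778 and Arg1 at 16015, 13487, 12530, and 17400. The length rho was −0.422 and −0.243 in libraries 1 and 4 and −0.047 and 0.092 in libraries 2 and 3, and its part in the remaining spread was not tested.

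The genes whose profile over the 12 libraries was most like each member were taken by Pearson's r of log2 CPM among 10548 genes with a mean normalized count of at least 50. The libraries fall into 3 groups, so r reflects group means as well as the spread within groups, and it is given as a description. Genes picked in this way resemble their member across these libraries by selection. Nearest to Arg1 were Gapdh (r = 0.982) and Aldoa (0.978), which encode glycolytic enzymes, and Mif (0.971), which encodes a cytokine. Gapdh had 209330, 167925, 159524, and 208878 normalized counts in the MDSC-NP-Blk libraries, high in the same libraries 1 and 4 as Arg1. Nearest to Nos2 were Pdk1 (0.994), which encodes a kinase that inhibits pyruvate dehydrogenase, Cd244a (0.993), which encodes the receptor 2B4, and Dipk1b (0.989). Pdk1 had means of 1989 in CITED, 3109 in MDSC-NP-Blk, and 3632 in MDSC, a narrower range than that of Nos2, and it was 3207, 2940, 2725, and 3563 in the MDSC-NP-Blk libraries.
Arg2 was nearest to Tprg1l (0.997), Arrdc4 (0.996), and the Fc receptor gene Fcgr3 (0.995), whose means were each lowest in MDSC and highest in CITED. Ass1 was nearest to Ergic3 (0.992), Cdc42ep2 (0.992), and Tgif1 (0.991). Odc1 was nearest to Rnaseh1 (0.970), Atp6ap2 (0.968), and Bnip2 (0.953). The likeness was lower for Slc7a2, with A430033K04Rik (0.934), Ap4m1 (0.919), and Rab11fip4 (0.913), and for Il4i1, with Fbxo7 (0.890), Smap1 (0.878), and Zfp268 (0.853).

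**Figure D4:**
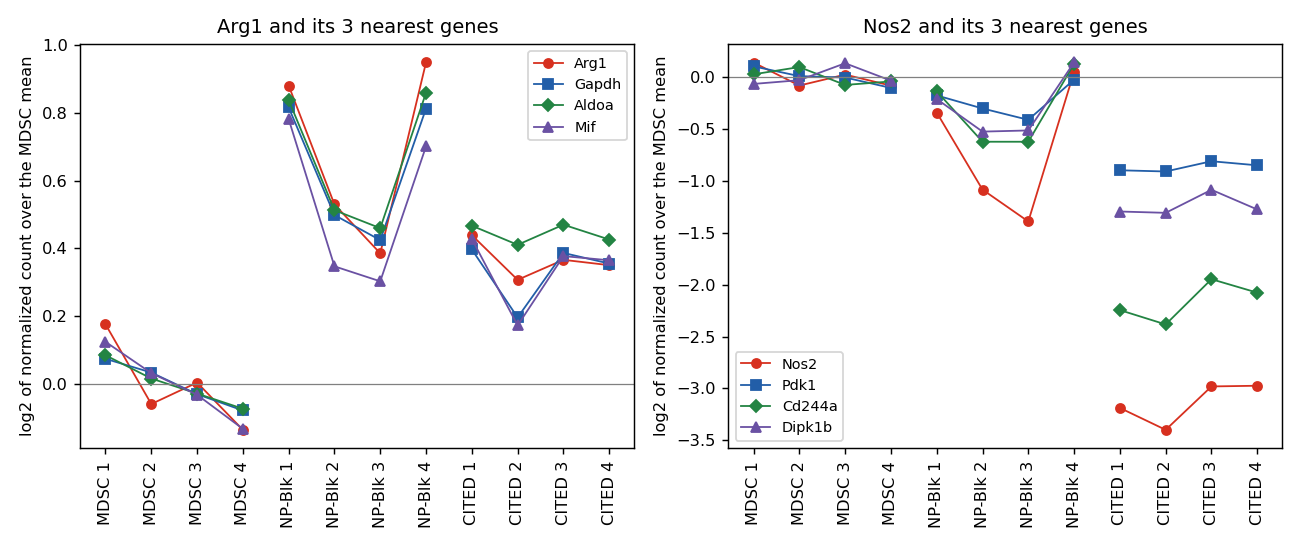
Log2 of the normalized count over the MDSC mean (y axis) in the 12 libraries (x axis) for Arg1 (left) and Nos2 (right), each with its 3 nearest genes. Lines only join libraries of a group. In MDSC-NP-Blk all 8 genes were higher in libraries 1 and 4 than in 2 and 3, and in CITED Nos2 was the lowest of the genes on the right. The nearest genes were picked by correlation over these libraries, which favors such a shared pattern.

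Beyond the 8 genes, 10 lists of 103 genes around these pathways were described, and 100 of them were tested. The lists, like the 8 genes and the markers below, were chosen with earlier results of these data known. Their counts beside those of all genes are therefore only a description. In CITED against MDSC 12 of the 100 were called higher and 7 lower, in MDSC-NP-Blk against MDSC 8 and 5, and in CITED against MDSC-NP-Blk 0 and 1. Of all genes tested, 3.28% and 6.70%, 1.88% and 2.86%, and 0.651% and 2.00% were called higher and lower in the same comparisons. At an adjusted p below 0.05 alone, the counts of list genes were 45 and 31, 43 and 24, and 23 and 16 of the 100, beside 22.2% and 22.2%, 19.9% and 18.6%, and 10.5% and 11.4% of all genes, and in the accounts of the lists that follow rose and fell refer to this threshold. The median log2 fold change of the 100 genes was 0.20, 0.19, and 0.04, beside −0.05, −0.03, and 0.00 for all genes tested. By list, the median in CITED against MDSC was −0.57 for ornithine and proline, 0.32 for polyamines, −0.40 for amino acid transporters, 0.25 for the urea cycle, 0.22 for nitric oxide handling, and −0.42 for tryptophan and kynurenine. It was 0.58 for other suppressive enzymes, 0.47 for regulators, 0.96 for classical activation, and −0.83 for alternative activation.
Ornithine, the product of arginase, is made into proline or polyamines. Of 7 genes between ornithine, glutamate, and proline, 0 rose, 6 fell, and 1 did not pass the test in CITED against MDSC. Aldh18a1, which makes the proline precursor from glutamate, fell, with log2 fold changes of −1.88 for CITED and −1.46 for MDSC-NP-Blk (adjusted p = 2.0e-18 and 1.8e-15 in edgeR's test). Pycr1, which completes proline, fell, at −1.72 and −1.34, from a low mean of 118 normalized counts in MDSC (adjusted p = 3.0e-07 and 1.7e-05). Prodh, which degrades proline, fell by 1.14 in CITED (adjusted p = 9.6e-08) and had a log2 fold change of −0.31 in MDSC-NP-Blk (adjusted p = 0.0938 in edgeR's test).
Of 13 polyamine genes, 8 rose and 4 fell in CITED against MDSC, and 6 rose and 4 fell in MDSC-NP-Blk against MDSC. Smox, which oxidizes spermine, was the only one called, and rose from 1487 to 3833 in MDSC-NP-Blk and 4708 in CITED (log2 fold changes 1.37 and 1.66, adjusted p = 1.3e-19 and 2.1e-22 in edgeR's test). Of the genes not called, the polyamine synthesis genes Amd1, Srm, and Sms, chosen after their values were seen, had log2 fold changes of −0.55, −0.37, and −0.69 in CITED against MDSC.
Of 8 amino acid transporter genes, 3 rose and 4 fell in each comparison with MDSC. Slc7a11 and Slc3a2, which together form the cystine importer, rose by 1.15 and 1.20 on the log2 scale in CITED (adjusted p = 6.2e-15 and 3.9e-21 in edgeR's test) and by 0.57 and 0.71 in MDSC-NP-Blk. Slc7a1, the other main importer of arginine, was not called and was chosen after its values were seen. It fell, with log2 fold changes of −0.87 in CITED (adjusted p = 4.6e-08) and −0.84 in MDSC-NP-Blk (adjusted p = 1.1e-07 in edgeR's test). Its values with the length trend removed or without TMM factors are not given here, nor are those of other list genes. Slc7a3 had at most 5 counts in a library. Of the 5 urea cycle genes, Otc and Cps1 had 0 counts and were not tested, and of the other 3, 2 rose in CITED and 0 rose in MDSC-NP-Blk relative to MDSC.

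**Figure D5:**
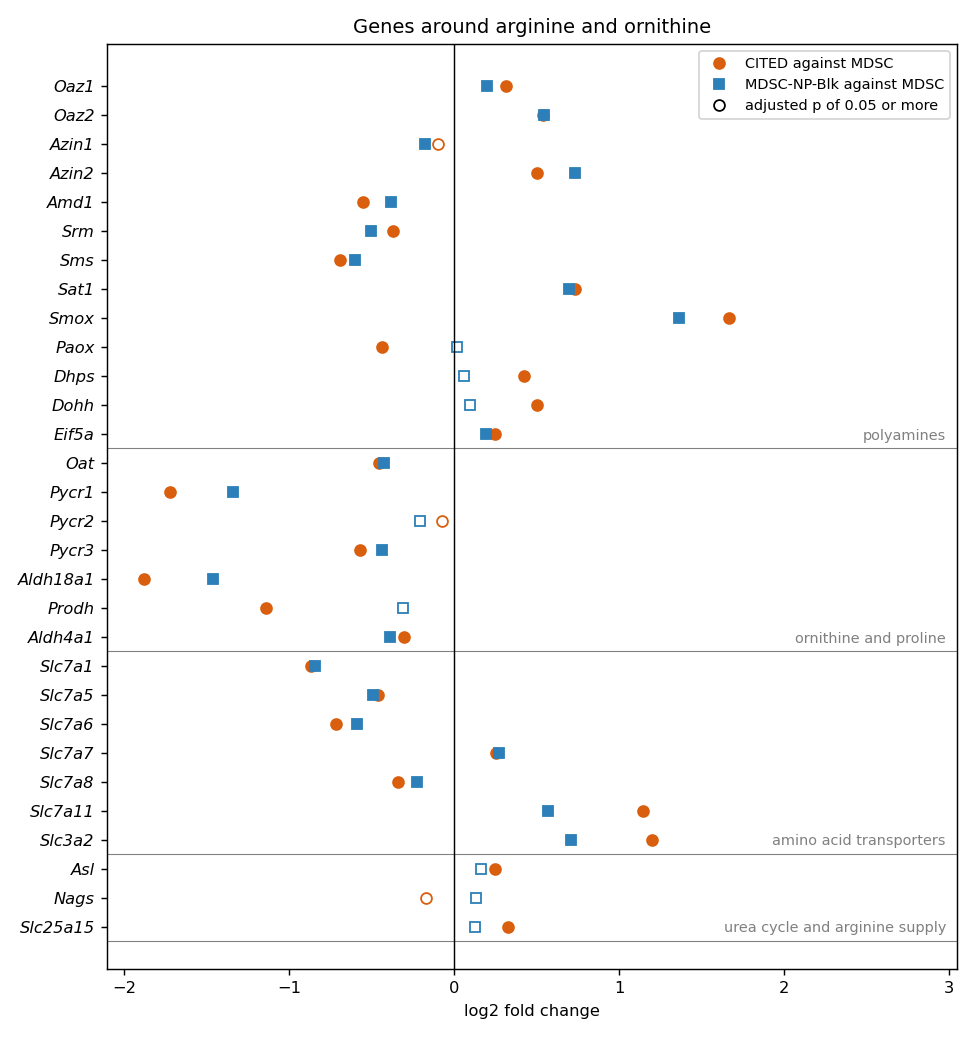
Log2 fold changes (x axis) of genes of polyamines, ornithine and proline, amino acid transport, and the urea cycle in CITED (circles) and MDSC-NP-Blk (squares) against MDSC, for genes with a mean normalized count of at least 20 in a group. Open symbols did not pass an adjusted p of 0.05, Smox stood highest at 1.66, and Aldh18a1 lowest at −1.88.

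Around Nos2, 11 of 12 genes of the nitric oxide cofactor and its handling were tested, Ddah1 having 0 counts. In CITED against MDSC 3 rose and 1 fell, and in MDSC-NP-Blk against MDSC 3 rose and 2 fell. The other synthase gene Nos1 had at most 4 counts in a library. Of 10 tryptophan and kynurenine genes, 0 rose and 4 fell in CITED against MDSC, and 0 rose and 3 fell in MDSC-NP-Blk. Qprt, which carries a product of the pathway into NAD, was called in CITED against MDSC-NP-Blk, where it fell by 1.13 (adjusted p = 0.00513 in edgeR's test). Ido2 and Tdo2, the other enzymes of the first step, had at most 6 and 3 counts in a library.
Of 10 other suppressive enzymes, 8 rose and 1 fell in CITED against MDSC, and 8 rose and 0 fell in MDSC-NP-Blk against MDSC. Cd38, a NAD-consuming enzyme, rose by 1.02 in CITED (adjusted p = 2.6e-18 in edgeR's test). Ptgs2, the inducible cyclooxygenase, rose more in MDSC-NP-Blk, by 1.53 (adjusted p = 1.1e-12), than in CITED, by 0.96 (adjusted p = 3.3e-08), and CITED stood at −0.57 relative to MDSC-NP-Blk (adjusted p = 2.5e-04 in edgeR's test).

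Of 21 genes for regulators of the members, 15 rose and 5 fell in CITED against MDSC, and 16 rose and 2 fell in MDSC-NP-Blk against MDSC. Cebpb, which encodes a myeloid transcription factor, rose from 6711 normalized counts to 13504 in MDSC-NP-Blk and 19070 in CITED (log2 fold changes 1.01 and 1.51, adjusted p = 2.7e-17 and 2.9e-22 in edgeR's test). Socs1, a feedback inhibitor of cytokine signaling, rose by 1.09 and 1.38, and Rela, the NF-kB subunit p65, by 0.93 and 1.10 in the same comparisons. Of 9 classical activation genes, 7 rose and 0 fell in both comparisons with MDSC, while Nos2, often grouped with them, was lower. Il1b rose by 1.92 in MDSC-NP-Blk and 2.05 in CITED (adjusted p = 1.3e-19 and 6.8e-21 in edgeR's test), Il6 by 1.68 and 2.03, Il12a by 1.30 and 2.03, and Cxcl10 by 1.84 and 1.79. Of 9 alternative activation genes, often grouped with Arg1, 0 rose and 6 fell in CITED against MDSC, and 1 rose and 4 fell in MDSC-NP-Blk. Mrc1, the mannose receptor, fell, with log2 fold changes of −2.24 in MDSC-NP-Blk and −2.81 in CITED (adjusted p = 1.1e-17 and 2.8e-20 in edgeR's test), as did the lectin gene Mgl2, at −1.24 and −1.69, and the chemokine gene Ccl17, at −1.78 and −1.80. Cxcl9 and Il10 had at most 2 and 6 counts in a library.

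Markers of cell types that the cultures could hold also differed between the groups, and their part in the results for the 8 genes was not tested. Of 6 progenitor markers, 4 were called lower in CITED against MDSC (Mpo, Elane, Prtn3, and Ctsg), where 6.70% of all genes were called lower, and the summed normalized count of all 6 was 7770 to 8519 for CITED, 32650 to 35300 for MDSC-NP-Blk, and 61406 to 67641 for MDSC. Of 6 macrophage markers, 5 were called lower (Mertk, C1qa, C1qb, C1qc, and Mrc1), with sums in the same order of 4959 to 5186, 4350 to 5883, and 8189 to 8734. The largest part of the macrophage sum was Adgre1, with means of 4445, 3806, and 3766. By contrast, C1qa, at 33.8, 177, and 559, C1qb, C1qc, Mrc1, and Mertk had the same order of groups as Nos2. So did the progenitor markers Mpo, Elane, Prtn3, and Ctsg, but not the other progenitor markers, Kit and Cd34. Kit had means of 1146 in CITED, 1773 in MDSC-NP-Blk, and 1265 in MDSC, and Cd34 had 215, 207, and 218. In CITED against MDSC-NP-Blk, 3 of the 6 macrophage and 4 of the 6 progenitor markers were called lower, beside 2.00% of all genes.
Of 8 granulocytic markers, 2 were called higher and 1 lower in CITED against MDSC, with sums of 768114 to 861703 for CITED, 932681 to 987400 for MDSC-NP-Blk, and 677107 to 773040 for MDSC. Of 6 monocytic markers, Cd14 was called higher (log2 fold change 2.97) and Ccr2 (−1.18) and F13a1 (−2.63) lower, and the median was −0.08. Of those not called, Csf1r stood at 0.996 (adjusted p = 1.5e-19 in edgeR's test), Ly6c2 at −0.35, and Cx3cr1 at 0.18. The mean of Csf1r was 22511 in CITED, 21112 in MDSC-NP-Blk, and 11287 in MDSC. The sum of the 6 monocytic markers, of which Cd14 made up the largest share in CITED, was 99961 to 104705, 99018 to 106208, and 49142 to 52068 in the same order. Of the 4 Gr1 and CD11b genes, 0 were called higher and 1 lower, with sums of 93042 to 97006 for CITED, 94801 to 103625 for MDSC-NP-Blk, and 79784 to 83468 for MDSC. Of 6 mast cell and basophil markers 1 was called lower, of 4 B cell markers 4, and of 6 dendritic cell markers 1, and the mast cell and basophil sum was 7235 to 7694, 12853 to 14223, and 11327 to 12270 in that order. T cell, NK cell, and erythroid markers had sums of at most 63.3, 14.6, and 67.3 in a library, and none was called in CITED against MDSC. Apart from the neural markers Rbfox3, Snap25, Gfap, and Olig2 and Ncr1 for NK cells, all markers had at least 2 counts. Mbp, the other neural marker, had normalized counts of 1763 to 2237.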

How the data were processed

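RNA from 12 libraries of cultured mouse MDSCs was poly(A)-enriched and sequenced with paired ends. Counts were deposited as whole numbers for each symbol, unnormalized. The authors had quantified reads with Salmon 1.4.0 on GENCODE transcripts of GRCm39 and summed them with tximport in R 4.3.2. The release of their annotation is not given in the sources used here. Groups and replicate numbers came from the sample titles, all table columns belonged to these libraries, and an entry with a blank symbol had 0 counts. P-values measure the spread between these cultures.

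A minimum of 2 counts in all was required, and tests used edgeR 4.0.16 in R 4.3.3 (TMM, glmQLFit, and glmQLFTest, group as the only term). The standard error is the log2 fold change over the square root of F. The thresholds and the filter follow the study's methods. The 8 genes, 10 lists, 61 markers, and searched words were chosen with earlier results of these data known. Rules for naming took all 8 genes, the 3 nearest genes of each except Ido1, which was below the level required, and, from each list, genes called in any comparison and those at the floor of 3 counts, and other names were chosen after their values were seen. Some genes that meet the rule are not reported here. Lengths, positions, and sequences came from GENCODE M39. Length trends were removed with a loess curve (span 0.5) per library. The counting intervals are exact and cover 95%.

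The alternatives were DESeq2 1.42.0, DESeq2 size factors, total counts, no filter, filterByExpr, a replicate block, fits to only the 8 libraries compared, the length correction, no fold threshold, and each library left out. Lowest and highest depth were 20604809 and 37855478 counts. Figures used Python 3.11.15 and matplotlib 3.10.9.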

Additional observations from a re-analysis of the deposited data

Results flagged for a closer look

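Of 24 sets of 4 libraries (8 genes in 3 groups), 1 had a library that stood far from the other 3 by Dixon's test at the 95% level, and chance alone marks about 1 in 20 such sets. Slc7a2 had a normalized count of 7304 in MDSC-NP-Blk 4, whereas the other 3 libraries lay between 6405 and 6448. The same library had the highest Nos2 and Arg1 of its group.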

How the results depend on the processing

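Of the comparisons of single members with their alternatives, 478 kept direction and side of the threshold, 13 lost the test, 2 gained it, and 8 changed sign. No call of Arg2 or Nos2 was lost under any alternative run. Leaving out the fold threshold gave 7862 genes between CITED and MDSC, 6815 between MDSC-NP-Blk and MDSC, and 3883 between CITED and MDSC-NP-Blk, 6 of the 8 members in each, and 76, 67, and 39 list genes. With each library left out, 1 to 2 list genes were called in CITED against MDSC-NP-Blk, the 2 being reached without MDSC-NP-Blk 1 or CITED 1. After removal of the length trend, Slc7a2 turned relative to MDSC, to 0.045 for CITED and 0.077 for MDSC-NP-Blk. With 1 library left out, Il4i1 in CITED against MDSC ranged from −0.068 to 0.053 and turned without MDSC 2 or 3 or CITED 2 or 4. Odc1 in MDSC-NP-Blk against MDSC ranged from −0.050 to 0.010 and turned without MDSC 2 or MDSC-NP-Blk 4. Slc7a2 in MDSC-NP-Blk against MDSC lost the test without a filter (adjusted p = 0.0534) and without MDSC 1, 3, or 4 or MDSC-NP-Blk 1, 2, or 3. Without TMM factors, 12.6% of calls in CITED against MDSC were higher (32.9% with them) and 12.1% in MDSC-NP-Blk against MDSC (39.7% with them), and Odc1 fell by 0.28 in the latter (adjusted p = 4.77e-05). The cause of these changes was not tested beyond the scaling and length steps themselves.

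Same-numbered libraries were treated as unpaired, and whether they shared a source is not stated. The correlation of their deviations from the group means was −0.0598 to 0.140, which cannot decide whether they did. A replicate block gave 1621, 766, and 441 called genes in the 3 comparisons, with 2, 1, and 1 members, and each library correlated best with its own number in 2, 0, and 4 of 8 libraries. Depth limits only Ido1 among the members, whose adjusted p was 0.276 or more as tested in full.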
